A study of Homo sapiens with 6 samples.

Results

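The chromatin around 4 genes of luminal prostate cells, SLC45A3, ACPP, TRPM8 and FOLH1, was followed in 22Rv1 cells after a degradation tag on FOXA1 was used. The members are the open regions in 4 fixed windows of the hg19 genome, which were 1:205580000-205700000 around SLC45A3, 3:131980000-132130000 around ACPP, 2:234780000-234980000 around TRPM8 and 11:49110000-49290000 around FOLH1. Peaks of the 6 libraries that overlapped by at least 1 bp were merged, and the windows held 52 of the 167726 merged regions, with 13 at SLC45A3, 17 at ACPP, 11 at TRPM8 and 11 at FOLH1. Regions are numbered along each window. The windows are wider than the genes, so a region in a window need not belong to the named gene. Genes next to them are ELK4 and NUCKS1 for SLC45A3, CPNE4 and DNAJC13 for ACPP, MSL3B and SPP2 for TRPM8, and TRIM64C and OR4C13 for FOLH1, taken from RefSeq on GRCh38.p14 for their order only. The closest region outside any window lay 0.516 kb before that of SLC45A3 and was held by 1 library, and the one 2.87 kb before that of TRPM8 was held by 6.

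The libraries are ATAC-seq, in which a transposase cuts and tags open DNA. 22Rv1 is an established androgen receptor-positive prostate cancer line. All 6 libraries carry the label FOXA1_dTAG, a tag fused to FOXA1 that lets a small molecule send it to the proteasome, and they differ in time. There are 2 libraries each at 0h, at 1h and at 24h. The labels give neither molecule nor dose nor a clone, do not name an untagged control, and do not say whether replicates were separate cultures, so the spread between them may be technical. FOXA1 protein and RNA of luminal markers were not measured in the files used here, so neither the degradation nor the cell type could be checked.

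FOXA1 is a forkhead pioneer factor that can bind its sites in closed chromatin and helps the androgen receptor reach enhancers in luminal prostate cells. FOLH1 encodes prostate-specific membrane antigen, a surface carboxypeptidase used as a target for imaging and radioligand therapy. ACPP, now named ACP3, encodes prostatic acid phosphatase, a phosphatase secreted into seminal fluid and an early serum marker of prostate cancer. SLC45A3 encodes prostein, a membrane protein of a sugar transporter family whose gene is a 5′ partner in ETS gene fusions. TRPM8 encodes a cation channel opened by cold and menthol. The genes thus comprise a pair of enzymes, a transporter-family protein and a channel, and expression of each is known to be typical of luminal prostate epithelium.

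The sequence under the hg19 peaks was not used here. To show what kind of start these genes have, the 250 bases before the outermost start of each gene were read from the RefSeq table on GRCh38.p14, which matched 3 of the 4 genes, and no peak was placed on them. They lie at 1:205680510-205680759 on the minus strand for SLC45A3, 3:132317157-132317406 on the plus strand for ACPP and 2:233917123-233917372 on the plus strand for TRPM8. Each is written 5′ to 3′ along its gene, with the one forkhead match in capitals.
SLC45A3: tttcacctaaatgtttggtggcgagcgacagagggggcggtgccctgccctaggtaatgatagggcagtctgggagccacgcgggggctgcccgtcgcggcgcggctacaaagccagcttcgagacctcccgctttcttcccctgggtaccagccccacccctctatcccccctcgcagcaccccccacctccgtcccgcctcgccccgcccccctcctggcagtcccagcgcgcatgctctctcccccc
ACPP: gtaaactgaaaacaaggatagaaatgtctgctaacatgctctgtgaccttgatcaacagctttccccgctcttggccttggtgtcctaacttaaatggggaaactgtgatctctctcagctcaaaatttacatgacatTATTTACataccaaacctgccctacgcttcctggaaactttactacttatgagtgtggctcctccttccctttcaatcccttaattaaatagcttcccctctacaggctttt
TRPM8: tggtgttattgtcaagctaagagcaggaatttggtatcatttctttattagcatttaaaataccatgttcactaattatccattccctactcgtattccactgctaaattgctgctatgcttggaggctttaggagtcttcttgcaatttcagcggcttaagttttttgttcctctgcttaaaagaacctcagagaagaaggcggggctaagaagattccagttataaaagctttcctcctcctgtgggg
These starts differed in base composition. The SLC45A3 stretch was 69.2% G and C, above the median of 58.0% over the 35116 promoters of the table, and the ACPP and TRPM8 stretches were below it at 42.0% and 40.0%. The forkhead strings TGTTTAC and TGTTTGC, searched on both strands, had no match in the 3 stretches and occurred in 2.98% and 3.23% of all promoters. Another string, TATTTAC, added after the sequences were seen, matched once in ACPP, starting 112 bases before the gene, and occurred in 2.39% of all promoters. The androgen receptor string TGTTCT had no match in the 3 stretches and occurred in 12.39% of all promoters. A match describes letters in a window and is not evidence of binding, and the absence of a match says nothing of the factor.

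Peaks are the authors' own calls in each library. The fold is their value for the pileup of tags at the summit over the local background, and a peak with a −log10 q of at least 10 is called strong. Of the 52 regions, 21 (40.4%) had a peak in all 6 libraries, against 43.3% of all merged regions, and 11 had a peak in a single library. Peaks in the windows numbered 40 and 43 in the 0h libraries, 33 and 34 in the 1h libraries and 33 and 32 in the 24h libraries. The mean was thus 0.807 of that of 0h at 1h and 0.783 at 24h, while whole lists had 0.938 and 0.887 of their 0h mean. Whole lists held 101755 to 125396 peaks, and relative depth, worked out from the usual background under its peaks, was 10.4 and 8.24 tags per kb in the 0h libraries, 8.14 and 8.62 in the 1h libraries and 7.33 and 7.04 in the 24h libraries. A shallower library misses weaker peaks, so a missing peak means that the authors' threshold was not met and not that the site was closed. Depth was lowest in the 24h libraries and overlapped between 0h and 1h, and its part in the results was not tested.

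**Figure D1:**
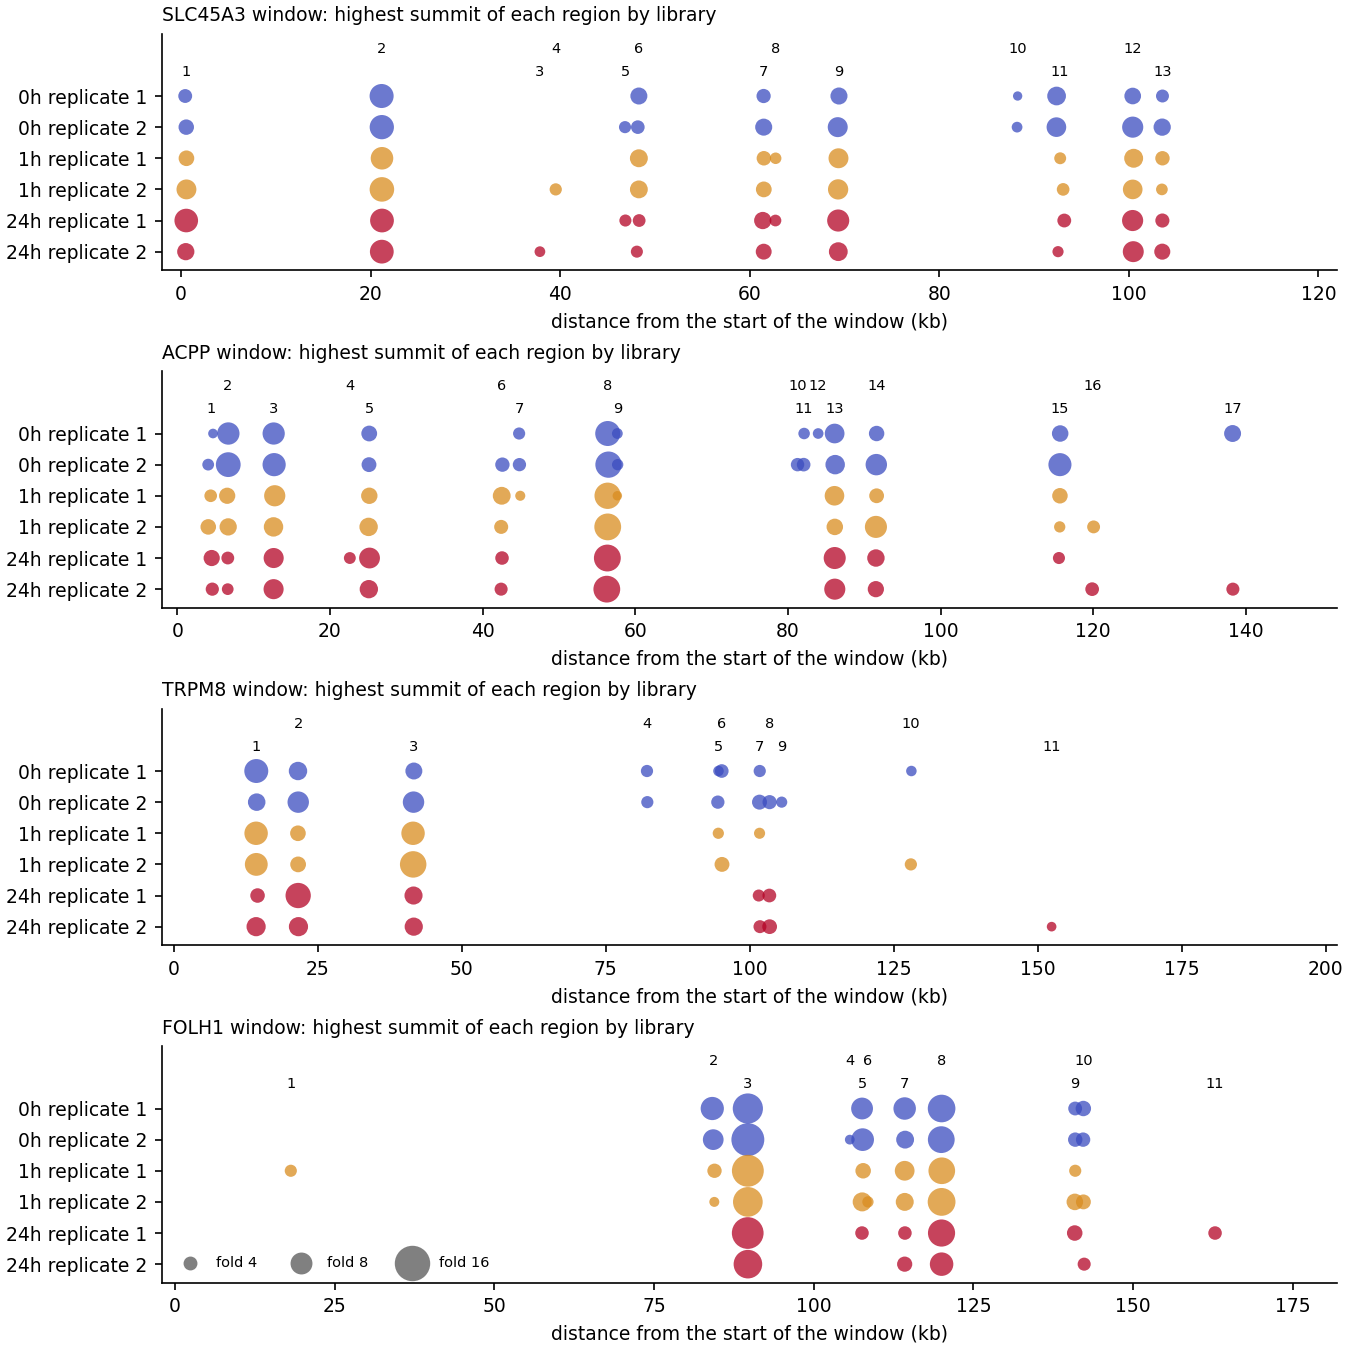
Summit of the strongest peak of each region (x axis, kb from the start of the window) in each library (rows, coloured by time), for the 4 windows. Marker size grows with the deposited fold over background and the numbers above are region numbers. FOLH1 region 2 has a marker in the 4 libraries of 0h and 1h and none at 24h, while FOLH1 region 3 has one in all 6.

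The FOLH1 window held the one strong region that had no peak at 24h. Its peaks numbered 7 and 9 in the 0h libraries, 7 and 8 in the 1h libraries and 6 and 4 in the 24h libraries. Region 2, at 11:49193961-49194627, was the single region of the 4 windows that was strong in both 0h libraries and had no peak in either 24h library. Its folds were 9.88 and 8.48 at 0h and 5.19 and 3.22 at 1h, on summit pileups of 49 and 25 tags and then 15 and 7. Both 1h values lay below both 0h values. To compare lists, each fold was divided by the median of its library over the 72695 regions held by all 6 libraries, and such values are called scaled. The scaled fold of region 2 at 1h was 0.476 of that at 0h (−1.07 on the log2 scale, pooled SD 0.414, n = 2 per time), a change at the 0.705th percentile of the 83375 regions with a peak in those 4 libraries. Its width went from 667 and 612 bp in the 0h libraries to 585 and 160 bp in the 1h libraries, so it was narrower in both before no peak was called at 24h. A width of 160 bp is that of the shortest peak in 1h replicate 2.

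Regions 5 and 7 of the FOLH1 window were also weaker later, from different times on. Region 5, at 11:49217035-49217941, had folds of 9.10 and 9.58 at 0h and 5.77 and 7.57 at 1h, and at 24h a single library held it with 4.81. The 1h folds lay below both 0h folds, and its width went from 904 and 732 bp at 0h to 421 and 503 bp at 1h and 206 bp in the remaining 24h library. Region 7, at 11:49224002-49224440, had folds of 9.46 and 6.96 at 0h, 7.96 and 7.01 at 1h, then 4.81 and 5.62 at 24h. Here the 0h and 1h libraries overlapped, and both 24h values lay below all 4 earlier ones, with a scaled ratio of 24h to 0h of 0.665. Region 7 therefore differed late and region 5 already at 1h, although the difference between these courses was not tested.

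The other FOLH1 regions kept their fold or were weak. Region 3, at 11:49199380-49199859, had the highest folds of any region in the 4 windows, 14.02 and 15.7 at 0h, 15.1 and 13.7 at 1h, then 15.0 and 13.04 at 24h. These ranges overlapped at all times, the summit stayed within 30 bp over the 6 libraries, and the region stood at the 92.4th to 98.1st percentile of fold in each list. Its summit pileups were 53 and 39 tags at 0h and 36 and 28 at 24h, and, scaled like the folds, both 24h pileups lay below both 0h ones. Its peaks were also narrower at 24h, at 308 and 290 bp against 406 and 373 bp at 0h. Widths differed over whole lists too. Among all regions held by 6 libraries, the median width averaged 481 bp at 0h, 535.5 bp at 1h and 446.5 bp at 24h. Region 8, at 11:49229298-49230310, was the widest of the window at 1013 bp merged, with folds of 12.5 and 11.96 at 0h, 11.9 and 12.6 at 1h, then 12.2 and 10.03 at 24h. These folds overlapped at all times, although both scaled 24h values lay below both scaled 1h values. The lost region 2 lay 5.36 kb from region 3, and region 7 lay 5.75 kb from region 8. Sites that were lost or weaker thus lay close to sites whose deposited folds overlapped at all times. Regions 9 and 10 had folds of 4.17 to 6.31 where held, in 5 and 4 libraries, and regions 1, 4, 6 and 11 each had a peak in 1 library with folds of 3.13 to 4.81. A near-identical gene copy, FOLH1B, lies on the other arm of chromosome 11. The sources used here do not say how reads that match both were treated, so levels in this window are uncertain.

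The ACPP window had 1 region that was lower at each later time. Region 2, at 3:131986233-131986961, had folds of 9.39 and 10.8 at 0h, 6.13 and 6.67 at 1h, then 4.48 and 3.97 at 24h, on pileups of 34 and 27, 18 and 19, and 10 and 8 tags. The 3 times did not overlap. Its scaled fold at 24h was 0.436 of that at 0h (−1.20 on the log2 scale, pooled SD 0.0986, n = 2 per time), at the 0.538th percentile of the 75341 regions with a peak in those 4 libraries. Among regions held by all 6 libraries, 1 of the 21 members followed this order of 0h above 1h above 24h without overlap, and so did 3.69% of all 72695. No member followed the reverse order, which 5.00% of all regions did. The peak of region 2 in 24h replicate 1 was 147 bp wide, against 587 and 604 bp at 0h, while that in 24h replicate 2 was 373 bp. A width of 147 bp is that of the shortest peak in 24h replicate 1, and this limit differed between libraries, from 111 to 172 bp.

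Region 8 of the ACPP window, at 3:132035821-132036776, held its level. Its folds were 10.9 and 11.7 at 0h, 11.7 and 11.96 at 1h, then 12.004 and 11.955 at 24h, the highest of this window. The later values lay slightly above both 0h values, with scaled ratios of 1.12 at 1h and 1.10 at 24h. Its pileups of 76 and 51 tags at 0h and 56 and 49 at 24h, scaled in the same way, overlapped between these times. Region 3, at 3:131992144-131993128, lay 6.02 kb from region 2 and had folds of 9.32 and 9.86 at 0h, 8.75 and 7.79 at 1h, then 8.14 in both 24h libraries. The 24h values were below both 0h values, by a scaled ratio of 0.882.

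The 3 ACPP regions lost at 24h were weak ones. Region 11, at 3:132062007-132062173, had folds of 3.88 and 4.85 at 0h and no peak later. Regions 7 and 9 had folds of 4.16 and 4.70, and of 3.56 and 3.81, at 0h, were held by 1h replicate 1 alone at 1h, and had no peak at 24h. Region 15 had folds of 6.27 and 9.80 at 0h, 5.77 and 3.78 at 1h, and 4.14 in a single 24h library. The window also held regions with higher later values. Region 1 had folds of 3.07 and 3.99 at 0h, 4.40 and 5.79 at 1h, then 6.11 and 4.66 at 24h, but on pileups of 10 to 16 tags whose positions were spread over 633 bp. Region 5, the widest of the window at 1119 bp merged, had folds of 5.91 and 5.44 at 0h, 6.21 and 7.26 at 1h, then 8.55 and 7.21 at 24h, higher in each later library than in both 0h libraries. Region 13 had 7.94 and 7.80 at 0h and 9.22 and 8.69 at 24h, with 1h values of 7.88 and 6.26. Its pileups of 35 and 23 tags at 0h and 23 and 22 at 24h, scaled like the folds, overlapped between these times. Region 14 overlapped at all times, with folds of 5.42 to 9.24. Region 6 was held by 5 libraries with folds of 4.60 to 6.95. Regions 4, 10, 12, 16 and 17 were each held by 1 or 2 libraries with folds of 3.50 to 6.49.

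SLC45A3 had the highest share of regions held by all 6 libraries, 8 of 13 (61.5%), and 10 peaks in each later library against 10 and 12 at 0h. Region 11, at 1:205672259-205673297, was lower at both later times. Its folds were 7.41 and 7.90 at 0h, 4.07 and 4.41 at 1h, then 4.95 and 3.72 at 24h, on pileups of 41 and 29, 16 and 18, and 14 and 9 tags. The later libraries lay below both 0h libraries and overlapped one another, so the difference was present at 1h and of like size at 24h, with scaled ratios to 0h of 0.590 and 0.582. These changes stood at the 2.33rd and 2.53rd percentile of all regions tested at those times. The summit lay 92.37 and 92.35 kb into the window at 0h, but at 92.75 and 93.06 kb at 1h and 93.18 and 92.52 kb at 24h. The highest point thus lay further into the window in each later library.

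Of the remaining SLC45A3 regions, 7 had a peak in all 6 libraries. Region 2, at 1:205600102-205601809, was the widest of all 52 at 1708 bp merged, with folds of 10.4 and 10.5 at 0h, 9.50 and 10.6 at 1h, then 10.2 in both 24h libraries. Its pileups of 83 to 129 tags were the deepest in the 4 windows. Both 24h folds lay slightly below both 0h folds, while the scaled folds overlapped at all times. Region 9, at 1:205648487-205650027, had folds of 6.55 and 8.08 at 0h, 8.05 and 8.24 at 1h, then 9.25 and 7.46 at 24h. Its scaled values were higher in both later times than at 0h by narrow margins, with ratios of 1.19 at each time, and the unscaled folds overlapped. Region 12, at 1:205680240-205680987, had 6.35 and 8.72 at 0h, 7.52 and 7.89 at 1h, then 8.71 and 8.62 at 24h. Its scaled folds at 24h lay above all earlier ones, with a ratio to 0h of 1.21, while the unscaled folds overlapped those of 0h. Region 6 was lower at 24h (4.46 and 4.13) than at 1h (6.99 and 6.96), while its 0h folds of 6.52 and 4.86 lay between. Region 1, at 1:205580003-205580710, had the largest positive change of the window, from 4.98 and 5.74 at 0h to 5.83 and 8.04 at 1h, then 10.1 and 6.64 at 24h, with a scaled ratio at 24h of 1.59 and pileups of 10 to 20 tags. Regions 7 and 13 had folds of 3.96 to 6.67, and their scaled folds overlapped at all times. Region 10, at 1:205668177-205668392, was lost at both later times from 0h folds of 2.93 and 3.54, the lowest pair of any region held by both 0h libraries. Regions 3, 4, 5 and 8 were each held by 1 or 2 libraries with folds of 3.53 to 4.20.

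In the TRPM8 window the regions lost were weak, and the strongest ones were kept. Its peaks numbered 8 in both 0h libraries, 5 in both 1h libraries and 5 and 6 in the 24h libraries, so each later library had fewer than each 0h library. Region 4, at 2:234862128-234862305, had folds of 4.20 and 4.18 at 0h, on 10 and 7 tags, and no peak later. Region 5, at 2:234874395-234874617, had 3.46 and 4.70 at 0h, 3.75 in a single 1h library and no peak at 24h. Region 8, at 2:234883256-234883579, had a peak in one 0h library (5.11), in neither 1h library and in both 24h libraries (4.92 and 5.40), the one gain of the 4 windows in any comparison. These 3 regions had pileups of 7 to 11 tags in every library holding them. Regions 6, 7, 9, 10 and 11 were of the same kind, with folds of 3.06 to 5.51 in 1 to 5 libraries.

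The 3 TRPM8 regions held by all 6 libraries had different courses. Region 3, at 2:234821292-234821835, had folds of 6.49 and 8.88 at 0h, 10.0 and 11.8 at 1h, then 7.08 and 7.15 at 24h, so the 1h libraries stood above the other 4. Its scaled ratio of 1h to 0h was 1.52, at the 98.1st percentile of all regions, on pileups of 23 and 27 tags at 1h against 16 and 16 at 0h. Region 2, at 2:234801191-234801813, had the reverse course with 7.25 and 8.88 at 0h, 5.83 and 5.89 at 1h, then 11.1 and 7.66 at 24h. Region 1, at 2:234794021-234794653, had 10.3 and 6.79 at 0h, 10.00 and 9.67 at 1h, then 5.30 and 7.66 at 24h, and the 0h libraries spanned most of this range. Pileups in these 3 regions were 10 to 27 tags, so a few tags separate the libraries.

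**Figure D2:**
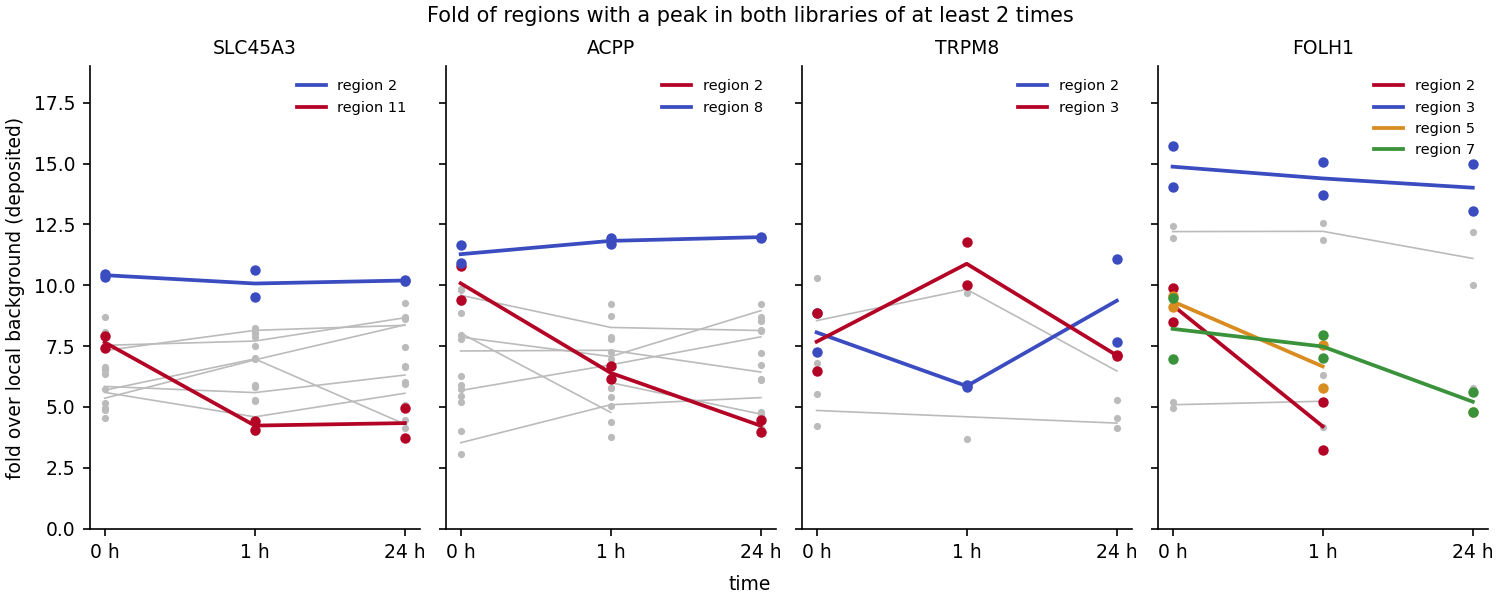
Deposited fold over local background (y axis) at 0 h, 1 h and 24 h in the 4 windows; points are libraries and lines join the means of times where both libraries held the region. Coloured regions are named in the legends, with ACPP region 2 going from 9.39 and 10.8 to 4.48 and 3.97, and FOLH1 region 3 staying between 13.04 and 15.7.

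Over the 4 windows, 33 regions were held by both libraries of 0h. Of these, 3 (9.09%) were lost at 1h, with a peak in neither 1h library. The same rule called 7.48% of all such regions lost at 1h, so the lost share of the members was close to the background. Gains were counted on another base, the regions with a peak in each library of the later time. At 1h, none of 26 was gained, against 3.93%. At 24h, 7 of the 33 were lost (21.2%), against 13.1% of all regions, and none of 24 was gained, against 6.54%. The 7 were 3 at ACPP, 2 at TRPM8, 1 at SLC45A3 and 1 at FOLH1, and the 3 lost at 1h were among them. No test was made of the difference from the background. Leaving out a library asks the rule of fewer libraries, and the losses at 1h were then 8 without 0h replicate 1, 5 without 0h replicate 2, 7 without 1h replicate 1 and 4 without 1h replicate 2, against 15.3%, 13.5%, 11.3% and 12.4% of all regions in the same order. At 0h, 13 regions were strong in both libraries. FOLH1 region 2 was the one lost at 24h (7.69%, against 4.02% of all strong regions), and none was lost at 1h, against 1.51%. No region strong in both later libraries was gained, at 1h (0 of 12, against 0.0338%) or at 24h (0 of 10, against 0.748%). From 1h to 24h, 1 of 26 was lost (3.85%, against 6.42%), FOLH1 region 2, and 1 of 24 was gained (4.17%, against 3.85%), TRPM8 region 8. No strong region was lost (0 of 12, against 0.0896%) or gained (0 of 10, against 0.151%) in that interval.

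The lost regions were narrow and weak at 0h apart from FOLH1 region 2. Over all 7 lost at 24h, FOLH1 region 2 included, the median fold was 3.88 in 0h replicate 1 and 4.70 in 0h replicate 2. It was 6.90 and 7.99 for the 22 regions kept in all 4 libraries. The median widths of the 7 were 176 and 112 bp, against 551 and 404 bp for the 22. Over all lists, regions lost at 24h had median 0h folds of 4.96 and 5.22 and kept ones 7.83 and 8.73. When every list was shortened to the length of the shortest, losses in the windows numbered 3 in place of 7 at 24h, which were FOLH1 region 2 and ACPP regions 9 and 11, and 1 in place of 3 at 1h, against 10.7% and 6.50% of all regions. When peaks under a −log10 q of 5 were left out, FOLH1 region 2 was still called lost at 24h. Each of the other 6 had a 0h peak under that limit, so this setting could not call them lost. SLC45A3 region 10, TRPM8 regions 4 and 5 and ACPP region 7 had no peak left in any library in either setting. With the stricter q, 4 other regions met the rule, which makes 5 in all, against 14.0% of all regions. The loss of FOLH1 region 2 from 1h to 24h was not called in either setting, nor when peaks had to cover 50% of a region. The gain of TRPM8 region 8 from 1h to 24h was called in each of these settings.

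Among regions kept in all libraries compared, members differed in both directions. At 1h, 6 of 25 members (24.0%) had scaled folds below both 0h libraries and 7 (28.0%) above both, against 21.1% and 22.8% of all regions. At 24h, 4 of 22 (18.2%) were below and 7 (31.8%) above, against 20.7% and 27.4%. Between 1h and 24h, 7 of 22 (31.8%) were below and 3 (13.6%) above, against 20.2% and 24.3%. The median scaled log2 change of the members was 0.0457 at 1h and −0.0049 at 24h, beside 0.0111 and 0.025 over all regions. The 3 FOLH1 members kept at 24h all had values under 0, from −0.59 to −0.03. Values under 0 were also found in 34586 of all 75341 regions. FOLH1 regions 3 and 8 stood at the 40.6th and 33.3rd percentile of these changes, and region 7 at the 4.98th. The 8 SLC45A3 members ranged from −0.78 to 0.67. With summit pileups in place of folds, an alternative chosen after seeing the data, the regions above both 0h libraries at 24h numbered 3 in place of 7, against 29.0% of all regions. Without scaling, 7 members were below and 6 above at 1h, against 28.8% and 13.1% of all regions, and 6 were below and 5 above at 24h, against 24.1% and 20.0%.

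**Figure D3:**
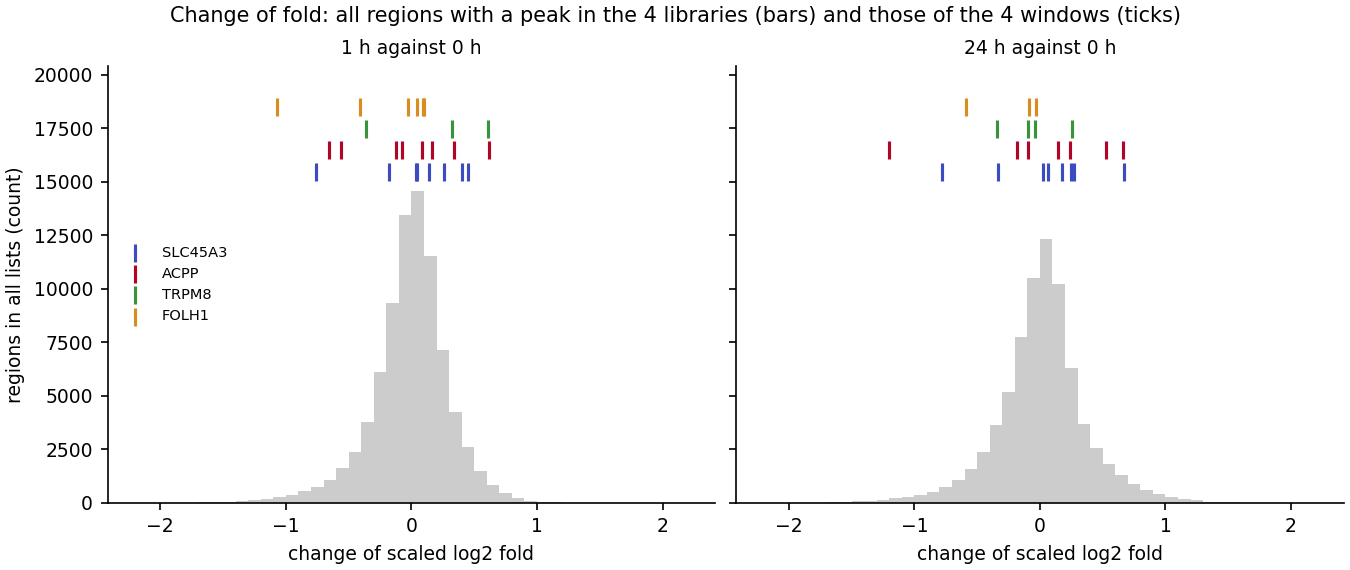
Change of scaled log2 fold (x axis) over all regions with a peak in the 4 libraries compared (grey bars, count of regions) and for the regions of the 4 windows (ticks, coloured by gene), at 1 h and 24 h against 0 h. Most ticks lie within the bulk of the bars; FOLH1 region 2 at 1 h (−1.07) and ACPP region 2 at 24 h (−1.20) lie farthest to the left.

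The base pairs under peaks summed up these courses per window. At FOLH1 they were 3827 and 3429 bp in the 0h libraries, 3276 and 3037 bp in the 1h libraries, then 1958 and 1617 bp at 24h, so that the 24h mean of 1788 ± 241 bp (SD, n = 2) was 0.493 of the 0h mean of 3628 ± 281 bp. The 24h libraries lay below all others. At ACPP they were 5565 and 4726 bp in the 0h libraries, 5825 and 5352 bp in the 1h libraries, then 3732 and 4129 bp at 24h, a ratio of 24h to 0h of 0.764. At SLC45A3 they were 6204 and 5972 bp in the 0h libraries, 5518 and 6149 bp in the 1h libraries, then 5852 and 4757 bp at 24h, a ratio of 0.871 between the same times. At TRPM8 they were 2682 and 1903 bp in the 0h libraries, 1794 and 1878 bp in the 1h libraries, then 1479 and 1970 bp at 24h. Here the 1h libraries lay below both 0h libraries and the 24h libraries overlapped both other times, with a ratio of 24h to 0h of 0.752. The whole lists covered 0.880 of their 0h length at 24h, so the ratio of SLC45A3 was near that of the lists and those of TRPM8, ACPP and FOLH1 were lower. For FOLH1, ACPP and SLC45A3 at 24h against 0h, the exact two-sided permutation p was 0.333 (adjusted 0.571 over 12 tests), the lowest value open to 2 against 2 libraries, and for TRPM8 the exact permutation p was 0.667 (adjusted 0.727). In numbers of peaks, TRPM8 at 1h and 24h, ACPP at 1h and 24h and FOLH1 at 24h separated from 0h without overlap, again with an exact permutation p of 0.333 each (adjusted 0.571). As a share of each list's peaks, ACPP at 24h overlapped 0h (exact permutation p 0.667, adjusted 0.8). By that measure FOLH1 at 24h lay below 0h by a narrow margin. With lists of one length the 24h counts were not lower at ACPP and TRPM8, where they exceeded those at 0h by 1.0 and 0.5 peaks on average.

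**Figure D4:**
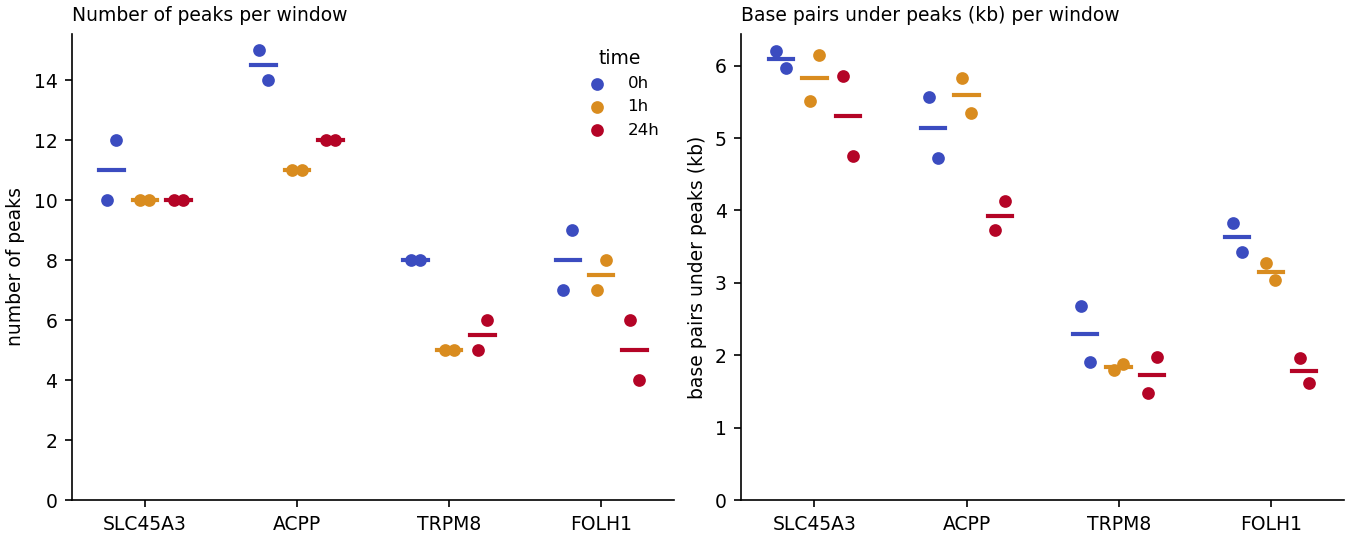
Number of peaks (left) and base pairs under peaks in kb (right) in each window by time; points are libraries, short lines the mean of 2. At FOLH1 the 24h libraries, with 1958 and 1617 bp, lie below all 4 earlier ones.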

How the data were processed

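Deposited peak lists of 6 ATAC-seq libraries were used, 1 per library, with no pooling of replicates. The submitters' processing notes name hg19 as the build and MACS2, Bowtie2, fastp and FastQC as tools. Versions, read shifting and duplicate removal are not given in the sources used here. Each deposited fold is a ratio of summit pileup to local background, the deposited −log10 p and −log10 q are MACS2's, and the deposited score was not used for results.

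Peaks of the 22 autosomes and X were merged in Python 3.11.15 with pandas 2.3.3. Summit pileups were solved from fold and −log10 p under a Poisson model with 1 added to pileup and background, and the solution met a tolerance of 0.001 for 100.0% of peaks. Background pileup divided by the shortest peak gave relative depth. No 2 lists shared more than 25 identical intervals. A region was lost when both earlier libraries and neither later one held it, and gained in the reverse case. Lower or higher means that both later scaled folds lay below or above both earlier ones. With 2 libraries per time, presence and fold were described and not tested, and peak numbers and covered base pairs per window had exact permutation tests. Calculations were tested on simulated data, in which the planted fold changes were larger than those of the members. Their recovery does not show how well smaller changes are called.

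The members and lists were chosen with earlier results of these data known. Regions were named by rule: strong lost or gained regions of each window (or the highest if none is strong), the 3 highest 0h folds, the widest region, and the lowest and highest change of scaled fold at 24h. The other regions were added after their values were seen, to account for every region. Peaks could not be placed on genes, and other luminal genes were not analysed, because an hg19 annotation was not used here. Alternatives were a −log10 q of at least 5, 50% cover of a region, lists of one length (101755 peaks), each library left out, unscaled folds, a replicate block and, added after seeing the data, summit pileups.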

Additional observations from a re-analysis of the deposited data

How the results depend on the processing

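Counts of regions are followed by the share of all regions called under the same setting. With −log10 q of at least 5, losses were 0 at 1h (8.64%) and 3 from 1h to 24h (5.96%), gains at 1h 1 (3.48%), and lower folds 1 at 24h (20.4%) and 3 from 1h to 24h (18.9%). With lists of one length, losses were 1 at 1h (6.50%), 3 at 24h (10.7%) and 0 from 1h to 24h (5.15%), and gains 1 at 1h (5.21%) and 1 at 24h (9.27%). With 50% cover, gains were 1 at 1h (8.24%) and 2 at 24h (11.2%), lower folds 1 at 1h (21.2%), 1 at 24h (17.7%) and 3 from 1h to 24h (18.2%), and higher folds 4 at 24h (28.2%). Summit pileups, chosen after seeing the data, gave 3 higher regions at 24h (29.0%), and unscaled folds kept the 6 counts of lower or higher folds within 1.5 times. With each library left out, which asks the rules of fewer libraries, losses were 4 to 8 at 1h (11.3% to 15.3%), 8 to 10 at 24h (16.7% to 21.0%) and 1 to 5 from 1h to 24h (9.96% to 14.5%). Gains were then 0 to 3 (7.54% to 11.2%), 0 to 3 (10.0% to 14.8%) and 1 to 4 (6.60% to 12.3%), lower folds 8 to 11 (33.2% to 37.4%), 8 (31.9% to 34.3%) and 8 to 11 (32.1% to 35.8%), and higher folds 9 to 12 (35.1% to 39.5%), 7 to 12 (38.6% to 42.2%) and 4 to 10 (37.8% to 38.5%). Differences in peaks per window changed sign at SLC45A3 at 1h (0.5 with the stricter q, 1.5 with one length) and 24h (0.5, one length), at ACPP at 24h (1.0, one length) and from 1h to 24h (−2.5, stricter q), at TRPM8 at 24h (0.5, one length) and at FOLH1 at 1h (−1.5 to 0.5 with a library left out). Covered base pairs changed sign at SLC45A3 at 1h (183 with one length, −570 to 61 with a library left out) and from 1h to 24h (−1076.5 to 18.5), and at TRPM8 from 1h to 24h (−357 to 134). The cause was not tested. Same-numbered deviations correlated at 0.04, 0.04 and 0.01, so no pairing by replicate number was seen in the folds. These correlations cannot show whether same-numbered libraries shared a culture or a batch. The replicate block gave 7 lower regions at 24h (27.8%) in place of 4. It kept the other 5 counts of lower or higher folds within 1.5 times and left the differences per window as they were, and its exact sign-flip p cannot go below 0.5.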
